A study of Rattus norvegicus with 18 samples.

Results

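The genes of the phenobarbital response were followed in the livers of male Wistar rats. The set was fixed by gene symbol and holds 8 genes, namely the cytochromes P450 Cyp2b1, Cyp2b2 and Cyp2b3, the nuclear receptors Nr1i3 and Nr1i2, and the enzymes Por, Alas1 and Ephx1. Of these, 7 could be read by symbol among the 32623 genes of each table, and Cyp2b1 was not analysed here. Whole liver RNA of 6 control, 6 NASH (non-alcoholic steatohepatitis) and 6 NASH-CH (NASH with cirrhosis) rats was sequenced, with 1 library per rat. NASH rats inhaled the hepatotoxin CCl4 and drank phenobarbital for 6 weeks, and then ate for 4 weeks a diet rich in fat and cholesterol (HFCD), without either agent. NASH-CH rats had CCl4 and phenobarbital for all 24 weeks, with the HFCD added for the last 16. Control rats had standard chow and plain water for 12 weeks. The labels sum this up as 10 or 24 weeks of CCl4 with the diet and do not mention phenobarbital. No group had phenobarbital alone, so its share in any difference cannot be told apart from that of CCl4, of the diet, of the duration or of the liver disease.

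Phenobarbital is the classical inducer of liver drug metabolism. It lets the constitutive androstane receptor (CAR, encoded by Nr1i3) move from the cytoplasm of the hepatocyte to the nucleus, where CAR pairs with the retinoid X receptor and binds enhancers of its target genes, foremost those of the Cyp2b family. The pregnane X receptor (PXR, encoded by Nr1i2) binds many of the same enhancers. Cyp2b1 and Cyp2b2 are the strongly inducible forms of rat liver, while Cyp2b3 is a constitutive form. Cytochromes P450 also need electrons from the reductase encoded by Por and haem, whose first synthetic enzyme in liver is Alas1, and Ephx1 encodes the microsomal epoxide hydrolase that opens the epoxides they form.

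The sequences just before the start of the Cyp2b genes show how close the inducible copies are to each other and how far they are from Cyp2b3. They are the 250 bases upstream of the RefSeq start on the plus strand of the GRCr8 assembly, another build than the Rnor_6.0 of the counts, at chr1:90645869-90646118 for Cyp2b1, chr1:90722031-90722280 for Cyp2b2 and chr1:90780242-90780491 for Cyp2b3. Capitals in Cyp2b1 and Cyp2b2 mark bases that differ between these 2 genes, and capitals in Cyp2b3 mark bases that differ from Cyp2b2 or have no partner in it. At the start of Cyp2b1 and the end of Cyp2b2, bases beyond the other window were not aligned and are also in lower case.
Cyp2b1: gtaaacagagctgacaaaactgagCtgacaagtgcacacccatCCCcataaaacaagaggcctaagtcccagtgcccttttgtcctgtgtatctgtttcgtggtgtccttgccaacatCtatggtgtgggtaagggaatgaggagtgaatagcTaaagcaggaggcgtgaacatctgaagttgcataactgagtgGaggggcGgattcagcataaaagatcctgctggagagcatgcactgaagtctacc
Cyp2b2: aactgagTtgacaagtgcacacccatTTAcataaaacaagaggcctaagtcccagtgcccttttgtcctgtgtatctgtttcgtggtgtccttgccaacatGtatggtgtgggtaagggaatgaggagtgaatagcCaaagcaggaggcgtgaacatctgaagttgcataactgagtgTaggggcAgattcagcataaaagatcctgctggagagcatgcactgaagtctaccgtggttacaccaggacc
Cyp2b3: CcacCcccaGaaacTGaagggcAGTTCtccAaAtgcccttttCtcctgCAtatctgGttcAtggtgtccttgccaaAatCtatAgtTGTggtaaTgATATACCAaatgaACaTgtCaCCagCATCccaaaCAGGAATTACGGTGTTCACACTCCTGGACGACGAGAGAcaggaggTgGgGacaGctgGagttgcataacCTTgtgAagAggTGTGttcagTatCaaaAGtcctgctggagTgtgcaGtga

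Over the 233 aligned positions, Cyp2b1 and Cyp2b2 were identical at 225 (96.6%), with 8 substitutions and 0 gaps. Cyp2b3 and Cyp2b2 were identical at 150 of 260 aligned columns (57.7%), with 49 substitutions and 61 gap columns. The nuclear receptor half-site AGGTCA occurred on either strand of the same window in 14.1% of 33469 RefSeq promoters, and among the 8 genes in those of Ephx1 and Por. The half-site AGTTCA occurred in 12.2% of promoters, and among the 8 genes in that of Nr1i2. A direct repeat of the half-site AGNTCA with 4 bases between the copies, the type of repeat that CAR binds, was in 0.0538% of promoters and in none of the 8. The search covered this window only, and the known phenobarbital enhancer of Cyp2b2 lies further upstream.

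Library totals ran from 19498534 to 29491947 expected counts in control and NASH rats and from 44680344 to 60117822 in NASH-CH rats, so depth differed with that group. Small non-coding RNA genes took 15.4% to 21.4% of the counts in control, 14.2% to 16.5% in NASH and 10.7% to 12.7% in NASH-CH libraries, and with those genes left out the number of the 7 genes called was the same in each comparison. Counts of each liver were scaled to CPM (a gene's counts per 1000000 counts of the library) by the TMM method, which corrects for a few genes taking a large share of a library, and compared by limma-voom across the 12904 genes that passed a filter on low counts. All 7 genes passed it. A gene was called at an adjusted p (Benjamini-Hochberg, all tested genes) under 0.05. Between NASH and control rats 0 of the 7 were called, where 3.12% of all genes were, 1.58% higher and 1.54% lower. At an unadjusted p under 0.05 there were 4 (Por, Nr1i3, Ephx1 and Alas1), where 21.5% of all genes passed, edgeR called 0 and DESeq2 2. Between NASH-CH and control rats 4 of the 7 were called, 2 higher and 2 lower, where 17% of all genes were called, 8.38% higher and 8.6% lower. Between NASH-CH and NASH rats 1 of the 7 was called, and it was lower, where 4.2% of all genes were called, 1.81% higher and 2.39% lower. In a whole tissue, fewer cells of a type and less RNA per cell cannot be told apart.

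Cyp2b2 (ENSRNOG00000020775), the inducible cytochrome, had the largest difference of the 7 genes. In control livers it was at 47.2, 36.9, 6.56, 35.0, 23.9 and 43.2 CPM in rats 1 to 6. In NASH-CH livers, taken with phenobarbital given to the end, it was at 991, 1017, 1058, 555, 592 and 1051 CPM. Every NASH-CH liver lay above every control liver, and the highest NASH-CH value was only 1.90 times the lowest. The mean was 877 ± 237 CPM in NASH-CH rats and 32.1 ± 14.8 CPM in control rats (SD, n = 6 each), 27.3 times as high. Its log2 change was 4.96 (SE 1.20, adjusted p = 0.00946), and the exact permutation test of log2 CPM gave p = 0.00216 (two-sided), the smallest p that 6 rats against 6 allow. All 18 livers share 1 estimate of the spread in this fit, and with the control and NASH-CH livers fitted alone the SE was 0.48.

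The NASH livers, taken 4 weeks after the last phenobarbital, did not form 1 group in Cyp2b2. NASH rats 1, 2 and 3 had 98.5, 1105 and 201 CPM, and NASH rats 4, 5 and 6 had 14.7, 5.99 and 6.10 CPM. The first 3 lay above every control liver, and rats 5 and 6 lay below every control liver. The lowest control, rat 3, was at 6.56 CPM and the next, rat 5, at 23.9, with NASH rat 4 between them. NASH rat 2 was above all 6 NASH-CH livers, so that the highest NASH value was 184 times the lowest, against 7.19 times among control livers. The mean of 239 ± 431 CPM (SD, n = 6) therefore describes no single liver. Against control the log2 change was 0.84 (SE 0.97, adjusted p = 0.661), and without NASH rat 2 it was -0.11. DESeq2, which compares mean counts rather than mean log counts, gave 2.89 (adjusted p = 0.0241) and edgeR's quasi-likelihood test 2.89 (adjusted p = 0.0811). NASH-CH livers were higher than NASH livers by 4.11 on the log2 scale (SE 1.20, adjusted p = 0.0616), which did not pass the threshold. edgeR gave 1.88 (adjusted p = 0.293) and DESeq2 1.87 (adjusted p = 0.229) for it, and the mean CPM of NASH-CH was 3.68 times that of NASH. Without NASH rat 2 the limma-voom difference was 5.06 and passed (adjusted p = 0.00344).

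Cyp2b3 (ENSRNOG00000033164), the constitutive neighbour of Cyp2b2 on the chromosome, did not follow it. Control livers had 352 to 620 CPM with a median of 565, NASH livers 354 to 528 with a median of 428, and NASH-CH livers 226 to 509 with a median of 350. The 3 groups overlapped, and 3 NASH-CH livers lay below every control liver. NASH-CH livers were lower than controls by a log2 change of -0.55 (SE 0.19, adjusted p = 0.0492), while NASH livers were at -0.32 (SE 0.18, adjusted p = 0.315). This call sat at the threshold and was lost with edgeR (adjusted p = 0.0562), with library size only (-0.29, adjusted p = 0.204), with the 2 groups fitted alone (adjusted p = 0.0993), with sample quality weights (adjusted p = 0.0761), with the replicate number as a block (adjusted p = 0.0614) and in 15 of 18 fits without 1 rat. NASH rat 2, the liver with the most Cyp2b2, had 372 CPM of Cyp2b3, within the range of the other NASH livers.

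**Figure D1:**
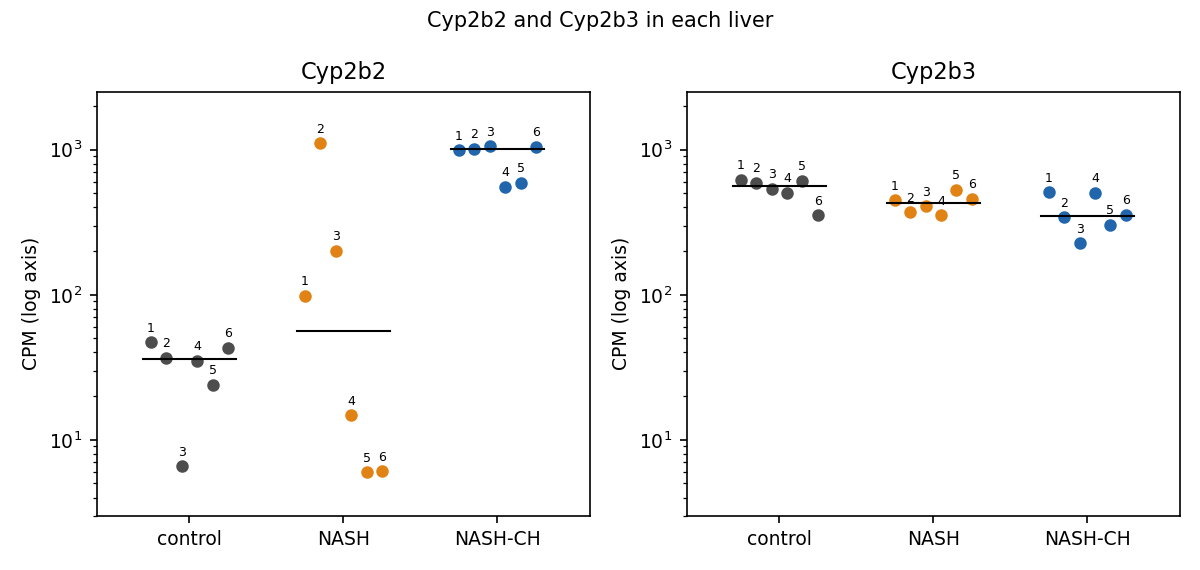
CPM of Cyp2b2 (left) and Cyp2b3 (right) on the same log axis in each liver of the control, NASH and NASH-CH groups, with the rat's number above its point and a bar at the group median. Cyp2b2 lies between 555 and 1058 CPM in the 6 NASH-CH livers and is spread from 5.99 to 1105 CPM in NASH livers, while Cyp2b3 stays between 226 and 620 CPM in all 18.

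The split of reads between near copies limits these values. Expected counts of Cyp2b2 were fractional in 17 of 18 livers, as arises when reads that match several genes are shared out, while those of Cyp2b3 were whole in all 18. Whether reads of Cyp2b1 are held in the values given as Cyp2b2 was not tested. The other Cyp2b genes of the tables had next to no reads, with Cyp2b15 at 0 counts in all 18 livers and Cyp2b12 and Cyp2b21 at 0 in 17 of 18. Cyp2b2 and Cyp2b3 were thus the only Cyp2b genes followed here with more than stray reads.

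The receptor gene Nr1i3 (ENSRNOG00000003260), which encodes CAR, was lowest in the group with the most Cyp2b2. NASH-CH livers 1 to 6 had 6.84, 6.49, 4.37, 5.44, 5.09 and 11.0 CPM. NASH livers had 15.9, 12.8, 25.1, 16.8, 15.5 and 23.1 CPM. Every NASH-CH liver lay below every NASH liver, and controls, at 6.08 to 18.4 CPM with a median of 12.4, overlapped both. Nr1i3 was lower in NASH-CH than in NASH rats by -1.51 on the log2 scale (SE 0.25, adjusted p = 0.000901, exact permutation p = 0.00216), so that the NASH level was 2.85 times that of NASH-CH. It was also lower in NASH-CH than in control rats, by -0.87 (SE 0.26, adjusted p = 0.0289), a call that was lost with library size only (-0.63, adjusted p = 0.1001), with the 2 groups fitted alone (adjusted p = 0.0548) and without control rat 1, 5 or 6 or NASH-CH rat 3 or 5. NASH rats were at 0.64 above controls (SE 0.26, adjusted p = 0.158), which passed with sample quality weights alone (0.75, adjusted p = 0.0485). NASH rat 2, with the most Cyp2b2 of all livers, had the least Nr1i3 of the NASH livers. NASH rat 3, next in Cyp2b2 among the NASH livers, had the most Nr1i3 of them. Control rat 1 was the highest control for both genes. RefSeq places Tomm40l over part of Nr1i3, and whether the authors' counting used strand was not given in the sources used here. Tomm40l was at 1.92 ± 0.445, 1.57 ± 0.293 and 2.58 ± 0.195 CPM in control, NASH and NASH-CH rats (SD, n = 6). Whether its reads enter the Nr1i3 values was not tested.

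Nr1i2 (ENSRNOG00000002906), which encodes PXR, differed little in its mean between groups and more in its spread. It ranged from 61.1 to 79.1 CPM in control livers, from 64.4 to 105 in NASH livers and from 37.2 to 104 in NASH-CH livers. Of the NASH-CH livers 3 lay above every control and 2 below. The log2 changes were 0.16 in NASH (SE 0.19, adjusted p = 0.669) and -0.02 in NASH-CH against control (SE 0.19, adjusted p = 0.958), and the sign of the second changed in 4 of 11 other settings. The test does not show the levels to be the same. RefSeq places Gsk3b over part of Nr1i2, and it was at 6.73 ± 1.52, 8.80 ± 0.847 and 8.74 ± 2.07 CPM in control, NASH and NASH-CH rats (SD, n = 6).

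Ephx1 (ENSRNOG00000003515), the microsomal epoxide hydrolase, was the other gene that rose in NASH-CH rats. Control livers 1 to 6 had 488, 539, 341, 403, 478 and 337 CPM. NASH-CH livers had 956, 963, 1187, 583, 2110 and 1055 CPM. All 6 NASH-CH livers were above every control liver, with NASH-CH rat 4 lowest and rat 5 highest. The log2 change was 1.31 (SE 0.26, adjusted p = 0.00263, exact permutation p = 0.00216), or 2.47-fold. NASH livers had 779, 1381, 683, 543, 526 and 521 CPM, of which 4 lay above every control and the lower 2 within the control range. Their log2 change of 0.71 (SE 0.25) did not pass (adjusted p = 0.113) but passed with DESeq2 (adjusted p = 0.0488) and with sample quality weights (adjusted p = 0.0465). Its counts were fractional in all 18 livers, and with which gene reads may be shared was not tested. RefSeq places a long non-coding RNA gene, not analysed here, over part of Ephx1. Groups that did not overlap were found for 2 of the 7 genes between NASH-CH and control rats (7.11% of all genes), for 1 between NASH-CH and NASH rats (3.46%) and for 0 between NASH and control rats (3.16%).

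Por (ENSRNOG00000001442), the reductase that passes electrons to all microsomal cytochromes P450, was at 109 to 263 CPM in control livers with a median of 169. It was at 158 to 474 CPM in NASH livers and at 154 to 378 in NASH-CH livers, with medians of 244 and 301. The groups overlapped, 2 NASH and 4 NASH-CH livers were above every control, and NASH rat 2 was again the highest of all. The log2 changes against control were 0.63 in NASH (SE 0.26, adjusted p = 0.169) and 0.77 in NASH-CH (SE 0.27, adjusted p = 0.0608). The NASH-CH difference passed with DESeq2 (adjusted p = 0.0384), library size only (adjusted p = 0.0195), no filter (adjusted p = 0.0432), quality weights (adjusted p = 0.0257), a replicate block (adjusted p = 0.0133) and without control rat 6, NASH rat 2 or NASH-CH rat 5.

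Alas1 (ENSRNOG00000056596), the first enzyme of haem synthesis, fell into high and low livers in both models. NASH rats 1 to 4 had 660, 931, 714 and 859 CPM and NASH rats 5 and 6 had 340 and 261. NASH-CH rats 1, 2 and 4 had 620, 720 and 731 CPM and rats 3, 5 and 6 had 330, 293 and 362. Control livers had 232 to 544 CPM, so that 4 NASH and 3 NASH-CH livers were above every control and the others were within the control range. The log2 changes of 0.77 in NASH (SE 0.31, adjusted p = 0.156) and 0.51 in NASH-CH (SE 0.32, adjusted p = 0.280) did not pass the test. Rpl29 overlaps Alas1 in RefSeq and was at 98.0 ± 14.1, 86.9 ± 6.98 and 88.3 ± 7.80 CPM in control, NASH and NASH-CH rats (SD, n = 6).

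**Figure D2:**
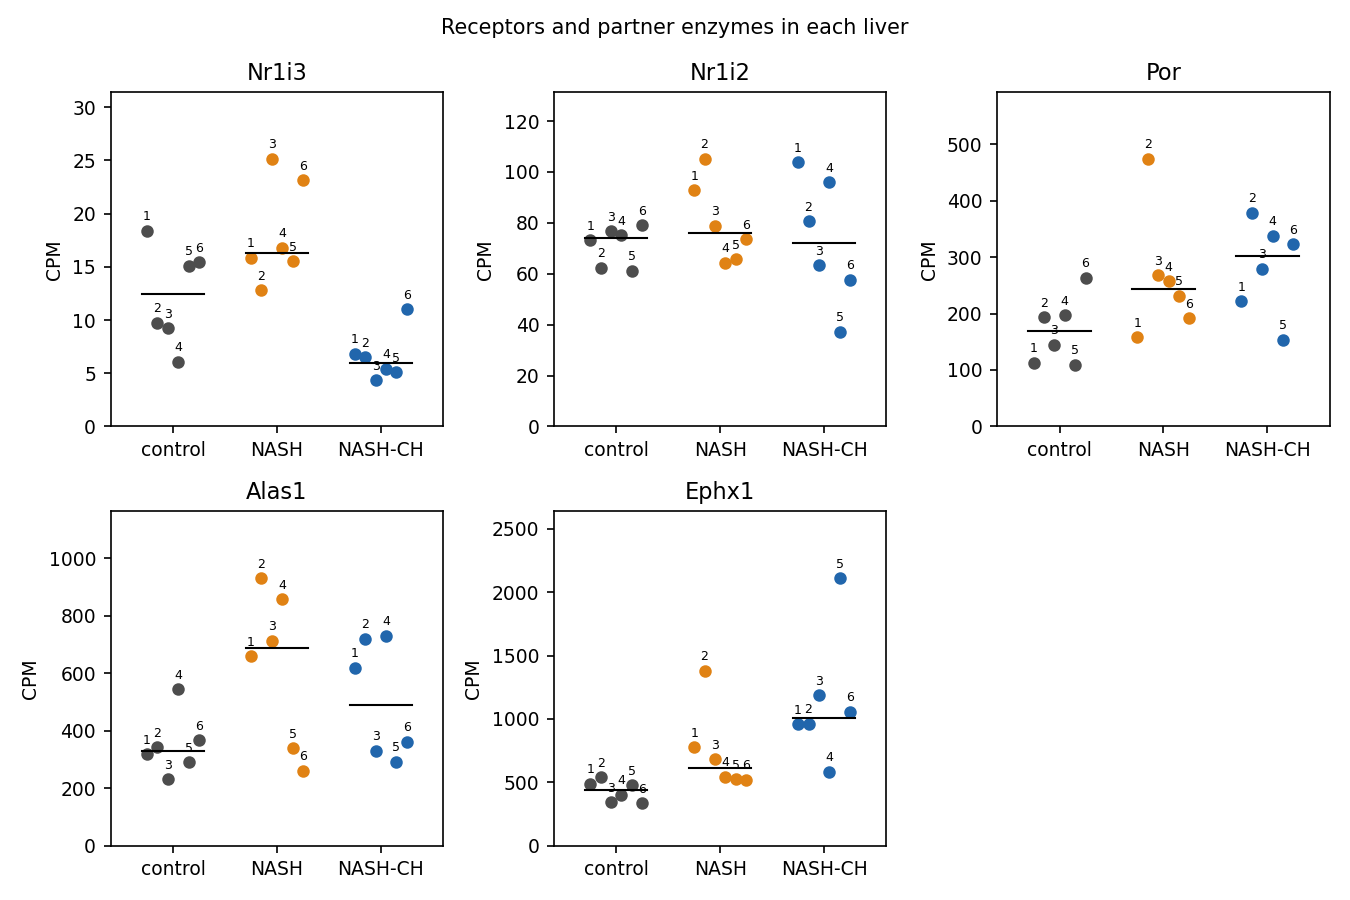
CPM of Nr1i3, Nr1i2, Por, Alas1 and Ephx1 on linear axes in each liver of the 3 groups, with the rat's number above its point and a bar at the group median. Nr1i3 in NASH-CH livers, 4.37 to 11.0 CPM, lies below all NASH livers, Ephx1 in NASH-CH livers lies above all controls, and NASH rat 2 is the highest NASH liver for Nr1i2, Por, Alas1 and Ephx1.

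Between NASH-CH and NASH rats, Nr1i3 alone passed the test. Cyp2b2 (adjusted p = 0.0616) and the other 5 genes did not. Ephx1 was at 0.60 (SE 0.27, adjusted p = 0.254), Por at 0.14 (SE 0.28, adjusted p = 0.857), Alas1 at -0.26 (SE 0.33, adjusted p = 0.742), Cyp2b3 at -0.23 (SE 0.19, adjusted p = 0.572) and Nr1i2 at -0.17 (SE 0.19, adjusted p = 0.701). NASH and NASH-CH rats were compared with the same 6 control rats.

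NASH rat 2 was the highest of its group for 5 of the 7 genes, namely Cyp2b2, Nr1i2, Por, Alas1 and Ephx1, and the lowest for Nr1i3. Its total and its sums of cell type markers lay within the range of the other NASH rats, with the exception of the cholangiocyte (12.2 CPM) and endothelial (275 CPM) sums, which were the highest of that group. Their part in these values was not tested.

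**Figure D3:**
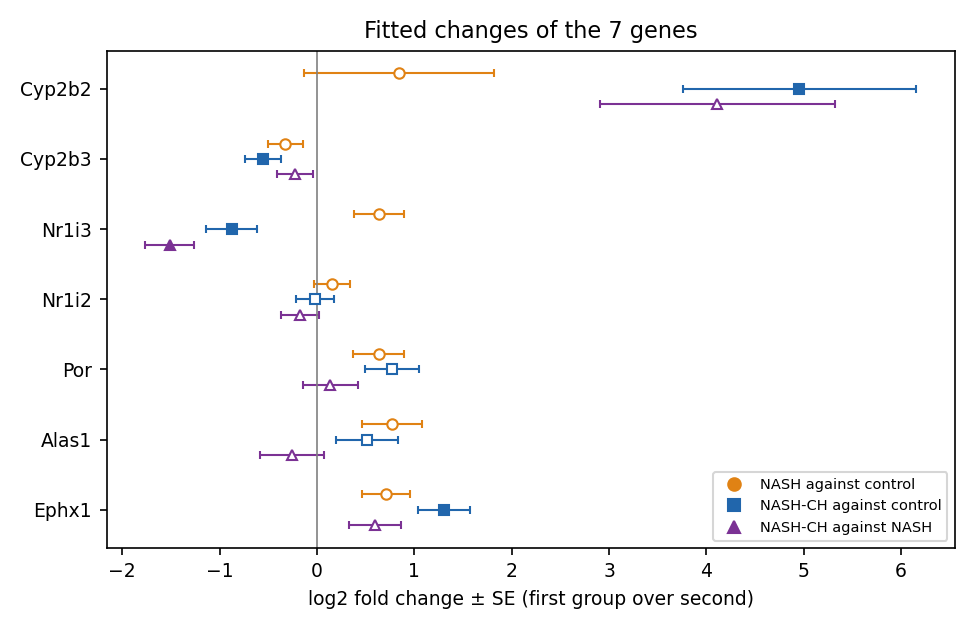
Log2 changes of the 7 genes with their SE from the limma-voom fit of all 18 livers, for NASH against control (circles), NASH-CH against control (squares) and NASH-CH against NASH (triangles). Filled symbols have an adjusted p under 0.05, and only Cyp2b2, Cyp2b3, Nr1i3 and Ephx1 in NASH-CH against control and Nr1i3 in NASH-CH against NASH are filled.

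Other genes that phenobarbital is known to induce were read from a list of 27, of which 21 symbols had rows and 20 rows were tested. The list was chosen with earlier results of these data known. In NASH livers 6 of the 20 were higher and 0 lower, where 1.58% and 1.54% of all genes were. The median log2 change was 0.82 against 0.01 over all genes. In NASH-CH livers there were 10 higher and 1 lower, where 8.38% and 8.6% of all genes were, with a median of 0.98 against 0.01. edgeR called 10 and DESeq2 11 of the 20 in NASH, and 12 and 14 in NASH-CH. Of all 12904 genes edgeR called 652 and DESeq2 1228 in NASH, and 2449 and 2841 in NASH-CH. Aldh1a1, a retinaldehyde dehydrogenase, rose from 52.2 ± 35.2 CPM in control to 211 ± 76.2 in NASH and 191 ± 40.9 in NASH-CH rats (SD, n = 6), with log2 changes of 2.20 (SE 0.36, adjusted p = 0.00528) and 2.10 (SE 0.37, adjusted p = 0.000919). Cyp3a23/3a1, the classical PXR target, rose by 1.15 in NASH (adjusted p = 0.00528) and by 1.29 in NASH-CH (adjusted p = 0.000184), and all 6 livers of each model were above every control for both genes. Ces2c, a carboxylesterase, rose by 2.55 in NASH (adjusted p = 0.00769) and by 3.22 in NASH-CH (adjusted p = 0.000171). Gsta1, a glutathione S-transferase, was the gene that fell, with -0.67 in NASH-CH (adjusted p = 0.0119). These 3 risen genes were above every control in all 6 NASH livers, 4 weeks after the last phenobarbital. Between NASH and control rats, 3.16% of all genes had groups that did not overlap. The 3 were named for their small adjusted p, Aldh1a1 and Cyp3a23/3a1 for that in NASH itself. Cyp2b2 was fixed by its symbol, so no contrast with it can be drawn from them.

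Cyp2c6v1 is a major liver cytochrome P450 and a known phenobarbital target. Like Cyp2b2, it was higher in NASH rats 1 to 3 than in NASH rats 4 to 6. NASH-CH livers had 4616 to 5865 CPM against 933 to 1326 in controls, a log2 change of 2.14 (SE 0.29, adjusted p = 5.47e-05). NASH rats 1 to 3 had 2040, 5554 and 3482 CPM, while NASH rats 4 to 6 had 1497, 1175 and 1459. Of the NASH livers 5 lay above every control and 0 below, while for Cyp2b2 3 lay above and 2 below. The NASH mean was not called against control (0.93, adjusted p = 0.0633) but was below NASH-CH (1.21 higher in NASH-CH, SE 0.29, adjusted p = 0.0244). Members of the Cyp2c, Cyp3a, Ces2 and Gst families have close copies, so their values carry the same doubt as those of Cyp2b2.

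Of 25 tested genes of CAR's partners and regulators, 1 was higher and 0 lower in NASH, while in NASH-CH 3 were higher and 0 lower. Their median log2 changes were 0.18 and 0.06. Over all genes 1.58% were higher and 1.54% lower in NASH, and 8.38% and 8.6% in NASH-CH. The small counts of this list and of those that follow were not tested against these shares. The coactivator gene Ncoa1 rose by 0.57 in NASH (adjusted p = 0.0201) and by 0.56 in NASH-CH (adjusted p = 0.00475), and Med1, of the Mediator complex, rose by 0.44 in NASH-CH (adjusted p = 0.0118). Of 6 genes of electron supply to the cytochromes, Por among them, 0 were higher and 1 was lower in NASH and 0 higher and 2 lower in NASH-CH, with medians of -0.25 and -0.23. These were the progesterone receptor membrane components, Pgrmc2 with -0.47 in NASH (adjusted p = 0.0306) and with -0.45 in NASH-CH (adjusted p = 0.0126) and Pgrmc1 with -0.39 in NASH-CH (adjusted p = 0.0291). Of 12 genes of haem synthesis and breakdown, Alas1 among them, 0 were higher and 2 lower in each model, with a median of -0.13 in both. Ppox, the enzyme before the last step of haem synthesis, fell from 14.6 ± 3.15 CPM in control to 7.49 ± 1.69 in NASH and 8.53 ± 1.78 in NASH-CH rats (SD, n = 6), with log2 changes of -0.94 (adjusted p = 0.0118) and -0.76 (adjusted p = 0.00575). Of the biliverdin reductases, Blvra fell in NASH with -0.46 (adjusted p = 0.0407) and was at -0.17 in NASH-CH (adjusted p = 0.319), while Blvrb fell in NASH-CH with -0.38 (adjusted p = 0.0164) and was at -0.30 in NASH (adjusted p = 0.0961). For the lists of CAR's partners, electron supply and haem, in that order, DESeq2 called more genes, 4, 2 and 4 in NASH and 5, 4 and 3 in NASH-CH, and edgeR called 1, 1 and 2 and then 3, 2 and 3. Of all 12904 genes DESeq2 called 1228 in NASH and 2841 in NASH-CH, and edgeR 652 and 2449. Among the epoxide hydrolases 2 of 4 were tested, and Ephx1 was the 1 called.

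The genes whose levels were most like those of Cyp2b2 were sought among 5201 named genes with a mean of at least 10 CPM, by Pearson's r of log2 CPM over the 18 livers. The 5 nearest were Ugt2b10 (r = 0.949, Spearman's rho = 0.920), Gstt3 (r = 0.932, rho = 0.905), Cyp2c6v1 (r = 0.912, rho = 0.806), Ces2a (r = 0.896, rho = 0.839) and Ces2j (r = 0.867, rho = 0.827), and without NASH rat 2 and NASH-CH rat 3, the livers farthest from the median, their r ran from 0.844 to 0.938. These are descriptions, since the livers of a group share their treatment and their sequencing depth. With each group's mean taken away, the nearest were Ugt2b10 (r = 0.902), Ces2c (r = 0.893), Gstt3 (r = 0.875), Cyp2c6v1 (r = 0.853) and Ces2a (r = 0.829), and without NASH rats 2 and 5 these were 0.802, 0.901, 0.731, 0.633 and 0.656. Cyp2c6v1 lost the most of its r there.

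Ugt2b10, Gstt3 and Ces2c were picked for their likeness to Cyp2b2 in these same livers. Their agreement with it, in NASH-CH and within NASH, follows largely from that choice. Ugt2b10, a UDP-glucuronosyltransferase, had 106 to 209 CPM in control livers and 492 to 729 in NASH-CH livers, a log2 change of 2.28 (SE 0.48, adjusted p = 0.00377). NASH rats 1, 2 and 3 had 414, 836 and 524 CPM and NASH rats 4, 5 and 6 had 105, 69.7 and 137 CPM. NASH rats 1 to 3 were thus above every control for both Ugt2b10 and Cyp2b2. NASH rat 5 was below every control for both, NASH rat 4 for Ugt2b10 alone and NASH rat 6 for Cyp2b2 alone. The margin of NASH rat 4 was small, with 105 CPM against 106 in the lowest control. For Cyp2b2 the lowest control was rat 3 at 6.56 CPM and the next was rat 5 at 23.9, with NASH rat 4 between them at 14.7. Gstt3, a theta class glutathione S-transferase, had 149, 199 and 143 CPM in NASH rats 1 to 3 and 108, 86.3 and 99.9 in rats 4 to 6, against 83.5 to 114 in controls, and it rose by 0.91 in NASH-CH (SE 0.17, adjusted p = 0.00166). Ces2c differed from both, since NASH rats 4 to 6, at 28.0, 24.1 and 13.4 CPM, were still above the control range of 4.96 to 10.3 CPM.

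**Figure D4:**
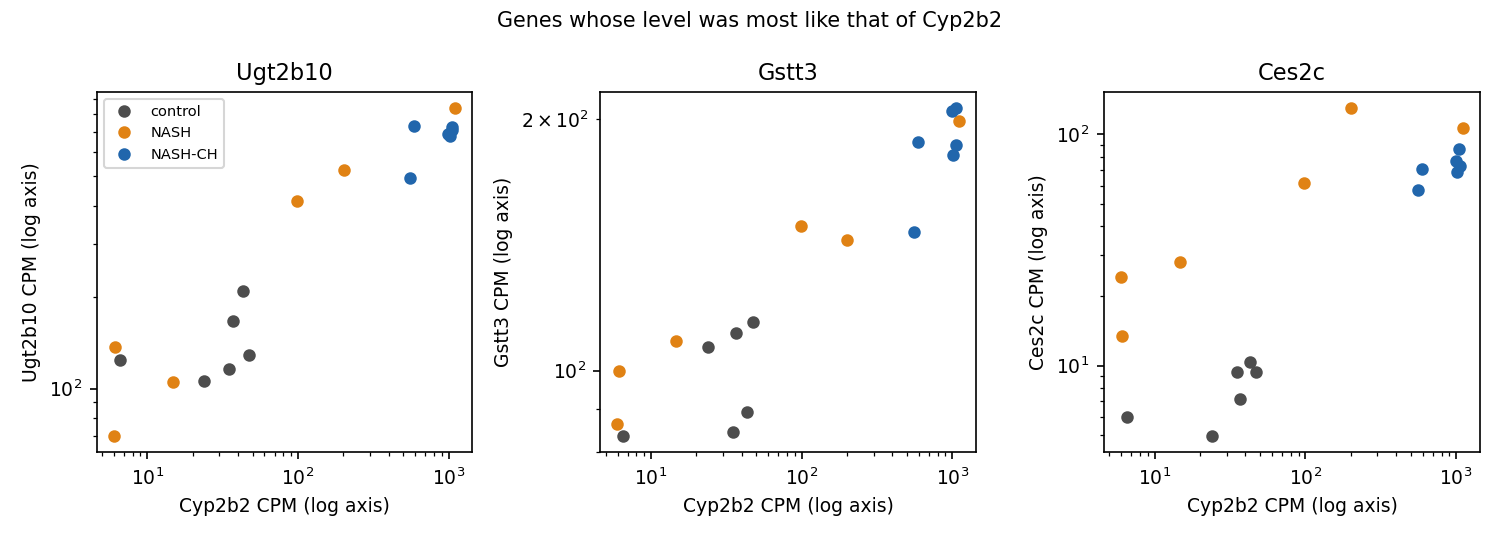
CPM of Ugt2b10, Gstt3 and Ces2c against that of Cyp2b2, both on log axes, with 1 point per liver coloured by group. These genes were picked for their likeness to Cyp2b2 in the same livers. NASH-CH livers lie together at the upper right, NASH livers are spread from the level of the controls to that of NASH-CH, and for Ces2c all 6 NASH livers lie above the controls.

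Markers of the cell types of liver were summed in each library as a check of the tissue. The 10 hepatocyte markers summed to 140930 to 199972 CPM in control, 102058 to 164774 in NASH and 95672 to 154882 in NASH-CH rats, and 0 of them were higher and 3 lower in NASH-CH against control. Their median log2 change was -0.16 in NASH and 0.02 in NASH-CH, against 0.01 over all genes in both. Alb weighed most in this sum (mean 83935 CPM over all livers), and Col3a1 in the stellate sum (237 CPM), so the sums mainly follow these genes. No marker was at 0 in all livers. Markers of stellate cells and myofibroblasts (7 rows) summed to 273 to 365, 221 to 299 and 272 to 411 CPM, those of macrophages (8 rows) to 243 to 453, 204 to 294 and 184 to 284 CPM, those of endothelium (5 rows) to 184 to 260, 242 to 275 and 154 to 262 CPM, those of cholangiocytes (6 rows) to 8.43 to 10.5, 6.60 to 12.2 and 6.53 to 51.5 CPM, and those of lymphocytes (6 rows) to 6.86 to 13.6, 9.003 to 13.1 and 10.6 to 23.2 CPM in control, NASH and NASH-CH rats. In NASH livers 1 hepatocyte, 1 stellate and 1 macrophage marker were lower than in control and 0 higher. Over all genes 1.58% were higher and 1.54% lower there. Against control, NASH-CH livers had 2 stellate markers of 7 higher and 1 lower, 1 macrophage marker of 8 higher and 4 lower, and 1 endothelial marker of 5 higher and 0 lower. Over all genes 8.38% were higher and 8.6% lower in NASH-CH, and the marker counts were not tested against these shares. Of 4 tested cholangiocyte and 3 tested lymphocyte markers limma-voom called 0 and 0 (1 and 0 at an unadjusted p under 0.05), edgeR 2 and 0, and DESeq2 1 and 0. The library with the highest cholangiocyte and lymphocyte sums, NASH-CH rat 5, was also the one with the lowest hepatocyte marker sum, the most Ephx1 and the least Nr1i2, Por and Alas1 of its group. Without it the log2 change of Ephx1 in NASH-CH against control was 1.12 and still passed (adjusted p = 0.00422), and the part of cell makeup in the other values was not tested.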

How the data were processed

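The members and the gene lists were chosen with earlier results of these data known. RNA of whole liver, 1 library per rat, had been prepared as stranded poly(A) libraries per the labels. The labels and the study's methods name different RNA extraction kits. The authors trimmed the reads, aligned them with STAR and deposited RSEM expected counts per gene (Rnor_6.0, Ensembl release 95), without normalization. Tool versions and the use of strand in counting were not given in the sources used here. Of the expected counts, 6.53% to 7.73% per library were not whole, and all were rounded. Groups came from the labels. TMM scaling and limma-voom, which the study's methods name, were run with filterByExpr and 1 fit of all 18 rats, chosen here, in R 4.3.3 (limma 3.58.1, edgeR 4.0.16), with edgeR's quasi-likelihood test and DESeq2 1.42.0 as alternatives. CPM values carried a prior count of 2 on the log2 scale. Permutation tests on single genes (scipy 1.17.1) were exact and two-sided. Beside the 7 genes, those named were the first 2 called in each direction of each list by adjusted p and the 5 nearest to Cyp2b2 by r, the rule's sum of Cyp2b1 and Cyp2b2 being replaced by Cyp2b2. The tests were tested on simulated data. Replicates were separate rats. RefSeq promoters were aligned globally with Biopython 1.88.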

Additional observations from a re-analysis of the deposited data

Results flagged for a closer look

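In 5 of 81 sets of 6 livers (each gene named here in each group), the highest or lowest log2 CPM stood apart from the others by a gap whose share of the whole range was above Dixon's 95% critical value for 6 samples. Chance gives such a gap in about 1 of 20 sets, and no cause was tested. Among the 7 genes of the phenobarbital response these were Cyp2b2 in control livers, where control rat 3 was lowest at 6.56 CPM (gap 0.656 of the range), and Cyp2b3 in control livers, where control rat 6 was lowest at 352 CPM (0.633). The others were Ugt2b10 in NASH-CH livers, with NASH-CH rat 4 lowest at 492 CPM (0.812), Pgrmc1 in NASH livers, with NASH rat 4 lowest at 475 CPM (0.702), and Cyp2e1 in control livers, with control rat 6 highest at 1954 CPM (0.673).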

How the results depend on the processing

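The alternatives were other tools (edgeR, DESeq2), other scalings, other filters, the 2 groups fitted alone, quality weights, a replicate block, NASH-CH counts thinned to the control depth, and each rat left out. Cyp2b2 and Ephx1 in NASH-CH against control and Nr1i3 in NASH-CH against NASH passed in all 11 settings and in all 18 fits without 1 rat. Of the 7 genes, 0 passed in NASH against control, but 2 with DESeq2 and 2 with quality weights, and 0 to 0 without any 1 rat. In NASH-CH against control 4 passed, but 2 with the 2 groups alone and 2 to 4 without 1 rat (2 without control rat 1, control rat 5 or NASH-CH rat 3). In NASH-CH against NASH 1 passed, but 2 with library size only, 2 with no filter, 2 with thinned counts and 1 to 2 without 1 rat. The signs that turned were those of Nr1i2 in NASH-CH against control, to 0.036 with edgeR, 0.031 with DESeq2, 0.22 with library size only, 0.17 with quality weights and -0.14 to 0.14 without 1 rat, of Nr1i2 and Alas1 in NASH-CH against NASH, to 0.031 and 0.088 with quality weights, and of Cyp2b2 in NASH against control, -0.11 to 1.45 without 1 rat. The causes were not tested. With library size only, the median of all genes shifted to 0.23 in NASH and 0.27 in NASH-CH.

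Over all genes, NASH against control moved from 403 calls to 652 with edgeR, 1228 with DESeq2, 865 with library size only, 268 with no filter, 644 with the 2 groups alone, 1509 with quality weights and 128 to 982 without 1 rat. NASH-CH against control moved from 2192 to 5495 with no filter and 1408 with the 2 groups alone, and NASH-CH against NASH from 542 to 949 with DESeq2, 2649 with no filter, 349 with the 2 groups alone and 294 without small non-coding RNA genes.

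The deviations of same-numbered rats from their group means had a mean r of 0.0516, 0.0732 and 0.0154 in the 3 comparisons. Of 6 pairs 2, 1 and 0 were over 0.1, and in NASH-CH against control r ran from 0.0272 to 0.124. Rats of different numbers were not correlated for comparison, so these values do not show that pairing is absent. With the replicate number as a block, 0, 4 and 2 of the 7 genes passed. Por in NASH-CH against control (0.75, adjusted p = 0.0133) and Cyp2b2 in NASH-CH against NASH (4.36, adjusted p = 0.0291) then passed, and Cyp2b3 in NASH-CH against control (-0.55, adjusted p = 0.0614) did not. The planned sum of Cyp2b1 and Cyp2b2 was not run. Depth and group cannot be told apart for NASH-CH libraries.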

Other observations

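Genes of pericentral hepatocytes, the zone around the central vein where phenobarbital acts most, did not move one way. Of 12 genes 2 were higher and 1 lower in NASH, and 1 was higher and 2 lower in NASH-CH against control, with median log2 fold changes of 0.21 and -0.03. Over all genes 1.58% were higher and 1.54% lower in NASH, and 8.38% and 8.6% in NASH-CH. Cyp2e1, the cytochrome P450 that activates CCl4, rose from 902 ± 523 CPM in control to 2100 ± 605 in NASH and 1626 ± 353 in NASH-CH rats (SD, n = 6), with log2 fold changes of 1.32 (SE 0.26, adjusted p = 0.0121) and 0.98 (SE 0.27, adjusted p = 0.0181) by limma-voom. The groups overlapped, with 3 NASH livers and 1 NASH-CH liver above control rat 6, the highest control at 1954 CPM. Slc1a2, a glutamate transporter, rose in NASH by 2.25 (adjusted p = 0.0269) and was above every control in all 6 NASH livers, while its 1.42 in NASH-CH did not pass (adjusted p = 0.0663). Glul, the glutamine synthetase of the innermost cells, fell in NASH-CH from 303 ± 73.9 to 138 ± 39.8 CPM (SD, n = 6, log2 fold change -1.13, adjusted p = 0.000655), with every NASH-CH liver below every control. Lect2 fell in both models with -0.64 (adjusted p = 0.0259) and -0.69 (adjusted p = 0.00470). These genes were named for their small adjusted p. Groups did not overlap for 3.16% of all genes between NASH and control rats and for 7.11% between NASH-CH and control rats. A list of 8 genes covered the aryl hydrocarbon receptor, which answers to another class of inducers. It held the receptor gene Ahr, its partner gene Arnt and its targets, and 7 of the 8 were tested. By limma-voom 0 were called in each of the 3 comparisons. At an unadjusted p under 0.05 there were 2 in NASH, 1 in NASH-CH against control and 2 in NASH-CH against NASH. edgeR called 0 in each and DESeq2 1, 0 and 1. The median log2 changes were -0.19 in NASH and 0.50 in NASH-CH against control and 0.78 in NASH-CH against NASH.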
